A study of Mus musculus with 8 samples.

Results

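The mouse IGKV8 light chains examined here are the kappa chains built from the 7 variable genes IGKV8-19, IGKV8-21, IGKV8-24, IGKV8-27, IGKV8-28, IGKV8-30 and IGKV8-34. A cell was taken when its barcode held exactly 1 heavy-chain contig and 1 light-chain contig and the light chain was assigned to one of these genes. This gave 3349 cells of 38806 kappa cells and of 40603 paired cells. IGKV8-18, in 31 KO and 12 WT cells, and IGKV8-16, in 5 KO and 4 WT cells, were not among the chosen genes.

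The cells came from a study of Deltex-1 (Dtx1), a ubiquitin ligase linked to Notch signalling, in germinal-centre B cells. The 4 KO libraries are labelled Dtx1-/- and the 4 WT libraries Dtx1+/+. All 8 hold spleen germinal-centre B cells of immunized mice on day 10, enriched with peanut agglutinin beads and sorted before droplet sequencing of the B-cell receptor. The sources used here do not give the immunogen, the strain, age and number of the mice, the cells in which Dtx1 was deleted or the sort gates. The deletion could not be checked, because contigs of receptor chains hold no reads of Dtx1.

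A kappa variable region is assembled in the developing B cell when a variable gene (IGKV) is joined to a joining gene (IGKJ). The variable gene encodes the first and second complementarity-determining regions (CDR1 and CDR2), and the join itself forms CDR3, the loop that together with the heavy-chain CDR3 lies at the centre of the antigen-binding site. In a germinal centre, activated B cells mutate both chains, compete for antigen and help, and may exchange IgM for a switched class such as IgG1.

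Libraries held 11666 to 14732 contigs and 754954 to 1155339 unique molecular identifiers (UMIs), with 4890 to 5538 kappa cells in KO libraries and 4312 to 4539 in WT libraries. Of 51304 barcodes, 1671 occurred in several libraries, 5 of them in IGKV8 cells, and none of these carried the same receptor in both. Libraries of the same genotype shared 40 to 102 IGKV8 clonotypes in each of 12 pairs, against 0 to 2 in the 16 pairs of different genotypes, as loadings of one pool of cells would. The SDs and p-values below therefore describe the spread between loadings and compare 1 KO pool with 1 WT pool, not animals. No receptor gene marks germinal-centre cells. IgD, a mark of naive B cells, was the class of 1 KO and 8 WT IGKV8 cells, and the B-1 heavy genes IGHV11-2, IGHV12-3 and IGHV7-1 occurred in 5 KO and 3 WT cells. IGKV8 cells with IgM and no mutation in either chain made up 73.5% in KO and 59.1% in WT, so the mutated or switched state of germinal-centre cells was met by a minority in both pools. Median heavy-chain UMIs of IGKV8 cells were 34 to 40 in KO libraries and 19 to 26 in WT libraries.

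The 7 genes lie within 297 kb on mouse chromosome 6 (GRCm38.p6 coordinates from RefSeq), 381 to 678 kb from IGKJ1. In order from IGKJ1 outward they are IGKV8-19 (chr6:70340876-70341448), IGKV8-21 (chr6:70314895-70315452), IGKV8-24 (chr6:70216858-70217421), IGKV8-27 (chr6:70171809-70172270), IGKV8-28 (chr6:70143593-70144161), IGKV8-30 (chr6:70117061-70117617) and IGKV8-34 (chr6:70044112-70044678). Each is an annotated variable gene segment, interspersed with IGKV6 genes. As germline of each gene the sequence held by most of its clones was taken, running from the start of framework 1 to the end of framework 3, which is 279 bases in all 7. IGKV8-19 and IGKV8-28 differed at 6 bases, the closest pair, and IGKV8-27 and IGKV8-34 at 41, the most distant. None of the 3349 cells was nearer to another member than to the gene it was assigned to.

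CDR1 of 51 bases is where the members differ most per base, and the sequences are shown because this loop is fixed by the choice of gene before any mutation. Capitals mark the bases that differ from IGKV8-30, the most used member.
IGKV8-30: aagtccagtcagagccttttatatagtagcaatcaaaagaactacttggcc
IGKV8-19: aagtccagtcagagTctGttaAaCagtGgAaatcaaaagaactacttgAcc
IGKV8-28: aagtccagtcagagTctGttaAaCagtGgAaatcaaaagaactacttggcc
IGKV8-21: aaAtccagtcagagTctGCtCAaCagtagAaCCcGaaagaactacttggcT
IGKV8-24: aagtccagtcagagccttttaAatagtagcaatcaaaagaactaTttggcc
IGKV8-27: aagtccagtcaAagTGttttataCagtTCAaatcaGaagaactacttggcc
IGKV8-34: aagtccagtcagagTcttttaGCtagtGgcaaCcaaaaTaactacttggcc
IGKV8-24 kept the CDR1 closest to that of IGKV8-30, with 2 changed bases, and IGKV8-21 had the most changed one, with 12. The CDR1s of IGKV8-19 and IGKV8-28 differed from each other at a single base near the 3′ end.

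The light CDR3 held by the most clones of each member is given next, because it shows how much of that loop the V gene fixes. The sequences run from the codon of the conserved cysteine to that of the conserved phenylalanine, and capitals mark the bases after the start that the member's 4 leading CDR3s, ranked by clones, share.
IGKV8-19 with IGKJ5: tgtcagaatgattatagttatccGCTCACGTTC
IGKV8-28 with IGKJ2: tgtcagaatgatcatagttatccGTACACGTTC
IGKV8-21 with IGKJ2: tgcaagcaatcttataatctGTACACGTTC
IGKV8-24 with IGKJ5: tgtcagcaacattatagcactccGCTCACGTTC
IGKV8-27 with IGKJ2: tgtcatcaatacctctcctcgTACACGTTC
IGKV8-30 with IGKJ2: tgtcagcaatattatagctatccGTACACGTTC
IGKV8-34 with IGKJ5: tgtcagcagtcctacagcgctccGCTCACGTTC
The IGKV8-19 sequence with IGKJ5 occurred in 204 of 303 KO cells with this gene and in 33 of 61 WT cells, in 88 clones with 32 different IGHV genes. By cells another CDR3, with IGKJ4, was more frequent in IGKV8-30 (211 cells against 189) and in IGKV8-34 (92 against 51). A few such chains covered much of each gene: the 3 leading CDR3s made up 87.6% of IGKV8-19 cells, 72.4% of IGKV8-27 cells and 50.6% of IGKV8-21 cells. CDR3s seen in both pools accounted for 87.6 to 96.7% of the KO cells of a member and for 65.4 to 92.4% of the WT cells.

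IGKV8-21 and IGKV8-27 stood apart in CDR3 length, counted with both conserved residues. The length was 10 residues in 271 of 308 IGKV8-21 cells and in 759 of 768 IGKV8-27 cells, and 11 residues in most cells of each of the other 5 members. Mean light CDR3 length was 10.7 residues in IGKV8 cells of both KO and WT libraries, against 11.0 in the other kappa cells. The difference was −0.327 residues, in 8 of 8 libraries (exact sign-flip test over 8 within-library differences, two-sided, p = 0.00781, the smallest it allows, adjusted p = 0.0312 over 12 measures). KO and WT IGKV8 cells differed by −0.00457 residues with cells counted (exact permutation p = 0.743). With each clone counted once, the difference was −0.0866 residues (exact p = 0.0286).

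IGKV8 chains were used more often in KO cells. The family took 10.5%, 11.0%, 10.5% and 10.9% of kappa cells in KO replicates 1 to 4, and 6.04%, 6.78%, 5.95% and 5.73% in WT replicates 1 to 4. Every KO library lay above every WT library, with means of 10.7% ± 0.262 in KO and 6.12% ± 0.458 in WT (SD, n = 4 each). The difference was 4.58 percentage points (exact permutation test, two-sided, p = 0.0286, the smallest that 70 assignments of 8 libraries allow, adjusted p = 0.0413 over 13 measures). It was 4.61 points with at least 5 UMIs in both chains and 3.20 points with each clone counted once. In clones defined over a pool, the family made 981 clones in KO and 517 in WT, of which 672 and 384 were single cells in KO and in WT. The other kappa cells made 8948 clones in KO and 6539 in WT.

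**Figure D1:**
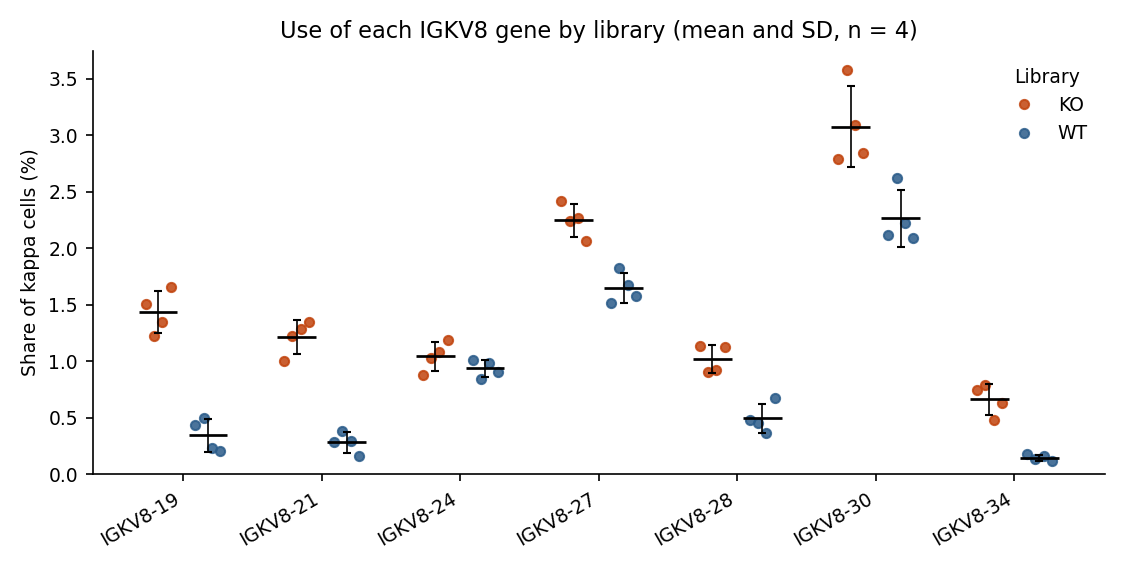
Share of kappa cells (percent, y axis) that used each IGKV8 gene (x axis) in the 4 KO (orange) and 4 WT (blue) libraries. Points are libraries, with the mean and SD. The KO points lie above all WT points for every member except IGKV8-24, in a comparison that called 72.5% of 69 IGKV genes. How many other IGKV genes separate in this way was not counted.

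Across the IGKV table, edgeR's quasi-likelihood test with kappa cells as library size called 50 of 69 genes (72.5%) at an adjusted p under 0.05, 46.4% higher in KO and 26.1% lower. Of the 7 IGKV8 genes, 6 were called and all 6 were higher in KO. Their median log2 fold change, KO over WT, was 1.04, against 0.19 over all 69 genes. With no filter on low counts the same 6 were called, among 53 of 94 genes (56.4%), and the medians were 1.04 for the 7 and 0.06 for all 94. Calls were so frequent in this comparison that a call by itself says little about a member, and the sizes are given for each.

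IGKV8-21 was found in 54, 68, 70 and 66 cells of KO replicates 1 to 4, and in 13, 17, 13 and 7 cells of WT replicates 1 to 4. IGKV8-19 was found in 81, 68, 73 and 81 KO cells and in 20, 22, 10 and 9 WT cells of the same replicate numbers. IGKV8-34, the member farthest from IGKJ1 and the rarest, was found in 40, 44, 26 and 31 KO cells and in 8, 6, 7 and 5 WT cells. No KO library of these 3 genes overlapped a WT library. The edgeR comparison called 72.5% of 69 IGKV genes, but how many of them separate by library in this way was not counted. All 3 passed the filter on low counts through the KO libraries, and with no filter their edgeR adjusted p was 1.96e-10 for IGKV8-21, 2.04e-10 for IGKV8-19 and 1.99e-08 for IGKV8-34. In the filtered fit, the log2 fold changes were 2.09 ± 0.203 for IGKV8-21 (SE, edgeR adjusted p = 6.99e-08), 2.04 ± 0.211 for IGKV8-19 (adjusted p = 1.59e-07) and 2.15 ± 0.236 for IGKV8-34 (adjusted p = 3.42e-07).

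The first 2 rises were carried by many clones and the third by few. IGKV8-19 made 135 KO and 43 WT clones, and IGKV8-21 made 117 KO and 29 WT clones. Counting each clone once per library left log2 fold changes of 1.39 for IGKV8-19 and 1.56 for IGKV8-21 (edgeR adjusted p = 2.34e-05 for both). IGKV8-34 made 12 KO and 10 WT clones, and 1 KO clone held 81 of its 141 KO cells. Without the largest clone of each light V gene in each pool its log2 fold change was 1.31 (adjusted p = 0.000463), and with each clone counted once it had too few counts to be tested. DESeq2 with its default dispersion trend, which could not be fitted as a curve and was replaced by a local regression, gave IGKV8-34 a log2 fold change of 1.95 with an SE of 2.70 (adjusted p = 0.676), and with a mean dispersion 1.94 with an SE of 0.372 (adjusted p = 1.34e-06).

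IGKV8-28 was found in 61, 50, 50 and 55 KO cells and in 22, 20, 16 and 29 WT cells, with a log2 fold change of 1.04 ± 0.182 (SE, edgeR adjusted p = 6.53e-05). The KO libraries again lay above all WT libraries, a separation not counted over the other IGKV genes, and 130 KO clones stood against 55 WT clones. With each clone counted once the log2 fold change was 0.80 (adjusted p = 0.00214).

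The most used members changed less. IGKV8-30 was found in 150, 198, 168 and 139 KO cells and in 96, 115, 97 and 90 WT cells, with a log2 fold change of 0.45 ± 0.0963 (SE, edgeR adjusted p = 0.000485). IGKV8-27 was found in 130, 124, 123 and 101 KO cells and in 69, 80, 73 and 68 WT cells, with a log2 fold change of 0.45 ± 0.0928 (adjusted p = 0.000364). As shares of kappa cells these averaged 3.08% in KO and 2.26% in WT for IGKV8-30, and 2.25% in KO and 1.65% in WT for IGKV8-27. Both calls were lost with TMM factors, which moved the median of all 69 genes from 0.19 to −0.05, with log2 fold changes of 0.20 for IGKV8-30 (adjusted p = 0.0968) and 0.21 for IGKV8-27 (adjusted p = 0.0709), and with both DESeq2 settings. Counted by clone they parted: IGKV8-27 had a log2 fold change of 0.69 (adjusted p = 0.000124) and IGKV8-30 one of 0.06 (adjusted p = 0.657), with 205 KO and 97 WT clones of IGKV8-27 and 258 KO and 197 WT clones of IGKV8-30.

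IGKV8-24 was the member not called. It was found in 47, 57, 59 and 58 KO cells and in 46, 37, 43 and 39 WT cells, which are 0.875 to 1.19% of kappa cells in KO and 0.845 to 1.01% in WT, so the groups overlapped. Its log2 fold change was 0.15 ± 0.14 (SE, edgeR adjusted p = 0.383) and turned to −0.09 with TMM factors and −0.07 with DESeq2.

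Other IGKV genes near the family did not all change in the same direction. Of 8 seen with locus numbers 16 to 34, 5 were tested: IGKV6-25 and IGKV6-32 were higher in KO (log2 fold changes 0.90 and 0.93), IGKV6-23 and IGKV6-17, which lies on the IGKJ1 side of IGKV8-19, were lower (−0.47 and −0.57), and IGKV6-20 was not called (0.24, edgeR adjusted p = 0.276). IGKV6-32 was not called with each clone counted once (0.36, adjusted p = 0.219). Over the 69 genes, Spearman's rho between position and log2 fold change was 0.118, a description across genes that share libraries. The 3 genes outside the family whose share over the 8 libraries followed the family's most closely were IGKV12-98 (Pearson r = 0.984), IGKV15-103 (0.959) and IGKV10-96 (0.954). All of them were higher in KO in the filtered fit, and the 8 points share libraries and genotype. IGKV10-96, at 0.25, was not called with TMM factors (0.009, edgeR adjusted p = 0.935) or with each clone counted once (0.06, adjusted p = 0.597).

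**Figure D2:**
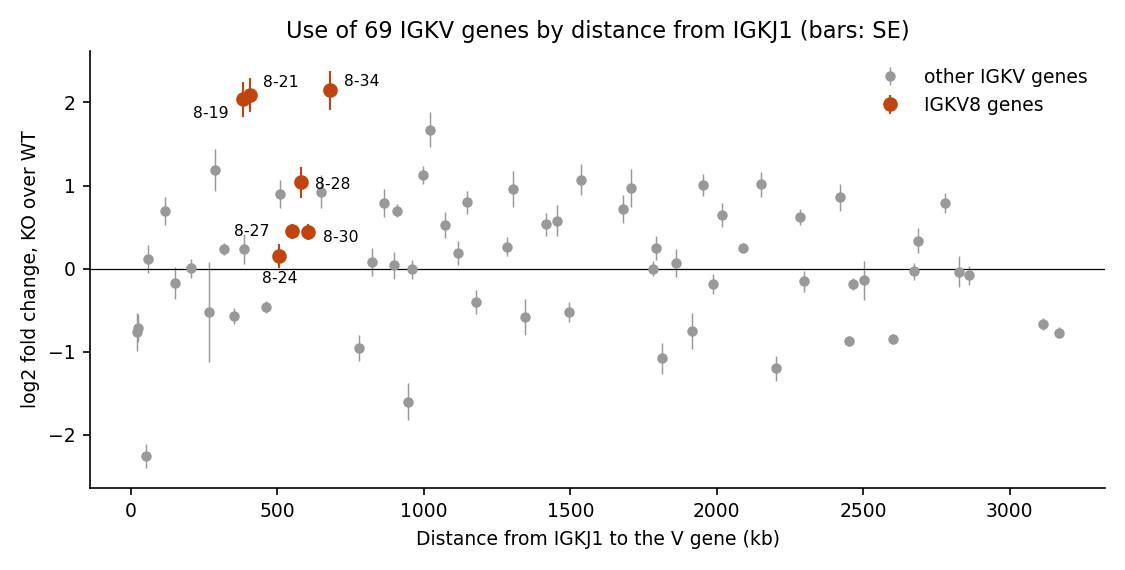
log2 fold change of cells per IGKV gene, KO over WT (y axis, bars show SE), against the distance of the gene from IGKJ1 in kb (x axis), for 69 tested genes. IGKV8 genes (orange, numbered) lie between 381 and 678 kb, with 3 of them above 2 and IGKV8-24 near 0, among other genes (grey) on both sides of 0.

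The joining gene set the members apart from each other more than it set KO apart from WT. Each clone was counted once per pool for this. IGKV8-19 was joined to IGKJ5 in 84 of 135 KO clones and 27 of 43 WT clones (62.2% in KO and 62.8% in WT), and to IGKJ1 in 0 of 135 KO clones and 3 of 43 WT clones. Among cells, 0 of 303 KO cells with IGKV8-19 carried IGKJ1, which allows a share of up to 0.990% of cells, and 4 of 61 WT cells did. Cells of a clone share their join and the largest KO clone held 64 cells, so the 135 KO clones give a looser bound. IGKV8-28, its near twin in sequence, was likewise rarely joined to IGKJ1, in 10 of 130 KO clones and 2 of 55 WT clones (7.69% in KO and 3.64% in WT), but used IGKJ5 in 30.8% of KO and 34.5% of WT clones. IGKV8-21 and IGKV8-27, the genes with the shorter CDR3, leaned to IGKJ1 and IGKJ2. IGKJ1 was joined to IGKV8-21 in 41.0% of KO and 37.9% of WT clones and to IGKV8-27 in 36.6% of KO and 33.0% of WT clones. IGKJ5 was joined to these 2 genes in 13.7% of KO and 6.90% of WT clones for IGKV8-21, and in 14.1% of KO and 20.6% of WT clones for IGKV8-27. IGKV8-24 used IGKJ5 in 41.1% of KO and 43.0% of WT clones, and IGKV8-30 had no preferred partner, with 12.4 to 30.6% of KO and 18.8 to 29.9% of WT clones for each of the 4 joining genes. In the other kappa clones, IGKJ1 made up 28.1% in KO and 28.3% in WT and IGKJ5 made up 26.9% in KO and 25% in WT.

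**Figure D3:**
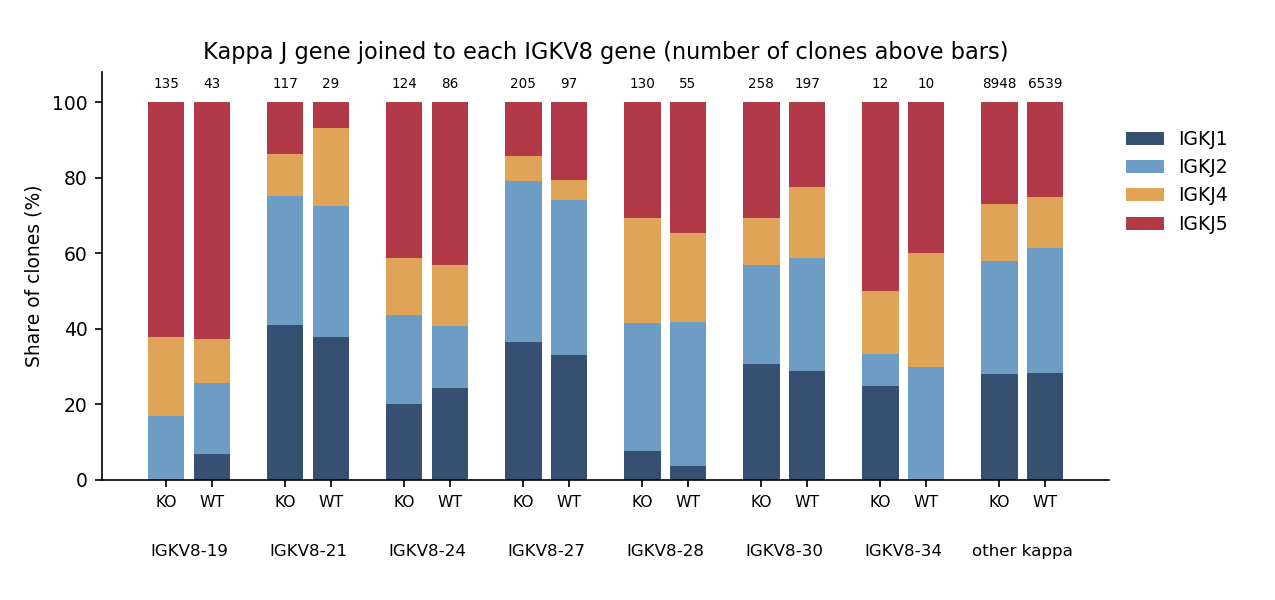
Share of clones (percent, y axis) joined to IGKJ1, IGKJ2, IGKJ4 or IGKJ5 for each IGKV8 gene and for the other kappa clones, KO left of WT in each pair, with the number of clones above each bar. KO and WT bars are alike in IGKJ5 for IGKV8-19 and in the low IGKJ1 of IGKV8-19 and IGKV8-28, while the bars of IGKV8-34 rest on 12 KO and 10 WT clones and differ in IGKJ1.

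Counted by cells over the whole family, IGKJ5 was carried by 31.3% ± 1.85 of IGKV8 cells in KO and 27% ± 2.04 in WT (SD, n = 4 each). The other kappa cells had 27.4% in KO and 23.3% in WT. IGKV8 cells exceeded the other kappa cells of their library by 3.78 percentage points, in 8 of 8 libraries (exact sign-flip p = 0.00781, adjusted p = 0.0312). This was not a trait of every member. The KO and WT shares were 75.9% and 70.5% for IGKV8-19, 47.5% and 42.4% for IGKV8-24, and 35.5% and 38.5% for IGKV8-34. They were 27.8% and 26.4% for IGKV8-28, 28.1% and 20.9% for IGKV8-30, 11.7% and 19.7% for IGKV8-27, and 10.5% and 10% for IGKV8-21. The family without IGKV8-19 was not tested. IGKJ2 was 3.11 points less frequent in IGKV8 cells than in the other kappa cells, in 7 of 8 libraries (exact p = 0.0156, adjusted p = 0.0469), a call that was lost with each clone counted once. Between genotypes, the differences, KO minus WT, were 4.28 points for IGKJ5 and −7.10 points for IGKJ2 in IGKV8 cells (exact permutation p = 0.0286 and adjusted p = 0.0413 for each). Both calls were lost in several settings. With each clone counted once the differences were 2.56 points for IGKJ5 (exact p = 0.286) and 0.203 points for IGKJ2 (exact p = 0.943). Without KO replicate 1 the IGKJ2 difference was −6.19 points (exact p = 0.0571), and the IGKJ5 difference was 3.64 points without KO replicate 3 (exact p = 0.0571) and 3.31 points without WT replicate 1 (exact p = 0.0857). IGKJ1 and IGKJ4 differed by 0.565 and 2.26 points between KO and WT (exact p = 0.743 and 0.229). The IGKJ4 difference turned to −3.75 points with each clone counted once and to −5.14 points without the largest clones.

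Heavy partners varied between the members, and some led for several of them, such as IGHV1-81 for IGKV8-28 and IGKV8-30. Cells were counted for each pair of an IGHV and an IGKV gene. edgeR called 55 of the 73 pairs that passed a filter on low counts (75.3%), 31.5% higher in KO and 43.8% lower. Of the 8 IGKV8 pairs that passed, only IGHV1-59 with IGKV8-27 reached the filter's level in all 4 libraries of both genotypes, and a pair that passed through 1 genotype alone had to differ, so their calls are not counted here. The adjusted p-values of pairs below come from edgeR with no filter, unless stated. Leading partners were chosen by their cells over both pools. For a member with more KO than WT cells, that choice favoured pairs high in KO. Ratios, fold bounds and p-values of such pairs are therefore descriptions. In that fit 48 of 332 IGKV8 pairs (14.5%) were called, 33 higher and 15 lower in KO, against 351 of all 3687 pairs (9.52%).

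IGKV8-27 was paired with IGHV1-59 in 127 of 478 KO cells and 65 of 290 WT cells, although IGHV1-59 was the heavy gene of 0.839% of other kappa cells in KO and 0.503% in WT. The pair made 41 clones in KO and 18 in WT, and IGHJ1 was the heavy joining gene of 24 of the 56 clones defined over both pools (42.9%), against 13.6% of 154 clones of IGHV1-59 with other kappa chains. Its log2 fold change was 0.69 ± 0.21 in the filtered fit (SE, edgeR adjusted p = 0.00179), and 1.45 (adjusted p = 4.41e-07) without the largest clones, one of which was a WT clone of 35 cells. IGHV1-69, the next partner, was paired with IGKV8-27 in 117 KO cells of 29 clones and 30 WT cells of 8 clones (log2 fold change 1.68, adjusted p = 4.05e-08). In 35 of these 147 cells, all of them KO, the light CDR3 was tgtcatcaatacctctcctcgcggacgttc. IGHV1-53 with IGKV8-27 had 5 KO cells in 5 clones and 51 WT cells in 2 clones, so the WT level was that of 2 clones, the larger of 32 cells, with no mutated IGHV and no switched cell.

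IGKV8-19 was paired with IGHV14-2 in 68 KO cells of 34 clones and in 1 WT cell. The ratio of shares of kappa cells was 56.3 (95% exact interval 9.78 to 2257, counting error only; edgeR adjusted p = 1.77e-14). No clone of this pair held more than 8 KO cells, and IGKJ5 was used in 27 of its 35 clones. IGHV10-1 with IGKV8-19 reached a like number of KO cells in another way: 65 KO cells fell in 2 clones, one of 64 cells, against 1 WT cell (ratio 53.8, interval 9.33 to 2159). These intervals count cells and not clones, so both overstate the precision. The last one does so most, with 2 KO clones against 1 WT clone. IGHV1-53 with IGKV8-19 had 33 KO cells in 3 clones and 1 WT cell.

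IGKV8-28 was paired most often with IGHV1-81, in 54 KO cells spread over 49 clones and in 8 WT cells over 7 clones. This pair was the most polyclonal of those examined, with 45 of the 49 KO clones seen once. IGKJ2 was joined in 36 of its 56 clones (64.3%), against 22.7% of the IGKV8-28 clones with other heavy genes, and 3 of its 54 KO cells were switched. IGHV1-81 also partnered IGKV8-19 in 21 KO cells of 20 clones and in 2 WT cells. IGHV1-50 with IGKV8-28 had 35 KO cells in 8 clones and 0 WT cells, at least 9.66-fold higher when the WT pool is set at a floor of 3 cells. IGHV1-12 with IGKV8-28 had 22 KO cells in 5 clones and 12 WT cells in 7 clones.

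IGKV8-21 was paired with IGHV1-9 in 75 KO cells of 12 clones and in 2 WT cells of 1 clone (ratio 31.1, interval 8.31 to 261, counted over cells and not clones). Both WT cells lay in WT replicate 2. IGHV1-55 with IGKV8-21 had 41 KO cells in 16 clones and 2 WT cells, and IGHV1-53 with IGKV8-21 had 27 KO cells in 4 clones and 0 WT cells, at least 7.46-fold higher against the same floor.

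IGKV8-30, the most used member, was seen with 63 IGHV genes in KO and 57 in WT. IGHV1-81 was its most frequent partner over both pools together, in 55 KO cells of 30 clones and 50 WT cells of 23 clones (log2 fold change −0.13, edgeR adjusted p = 0.758). IGHV1-72 led among KO cells. IGHV1-72 with IGKV8-30 had 80 KO cells and 13 WT cells (log2 fold change 2.31, edgeR adjusted p = 2.20e-08), and 68 of the 80 KO cells were a single clone. IGHV8-8 with IGKV8-30 had 37 KO cells in 16 clones and 21 WT cells in 7 clones, with IGKJ5 in 13 of its 20 clones (65.0%), against 24.6% of the other IGKV8-30 clones.

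IGKV8-24 had no pair that passed the filter on low counts. Its 3 leading partners were IGHV1-53, with 30 KO cells in a single clone and 8 WT cells in 2 clones, IGHV9-3, with 10 KO cells in 9 clones and 25 WT cells in 4 clones, and IGHV1-81, with 24 KO cells in 11 clones and 9 WT cells in 8 clones. For IGKV8-34 the 3 leading partners in KO, IGHV5-17, IGHV1-9 and IGHV1-66, had 83, 26 and 16 KO cells and 0 WT cells each, with 81 of the 83 cells, all 26 and all 16 in 1 clone each.

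**Figure D4:**
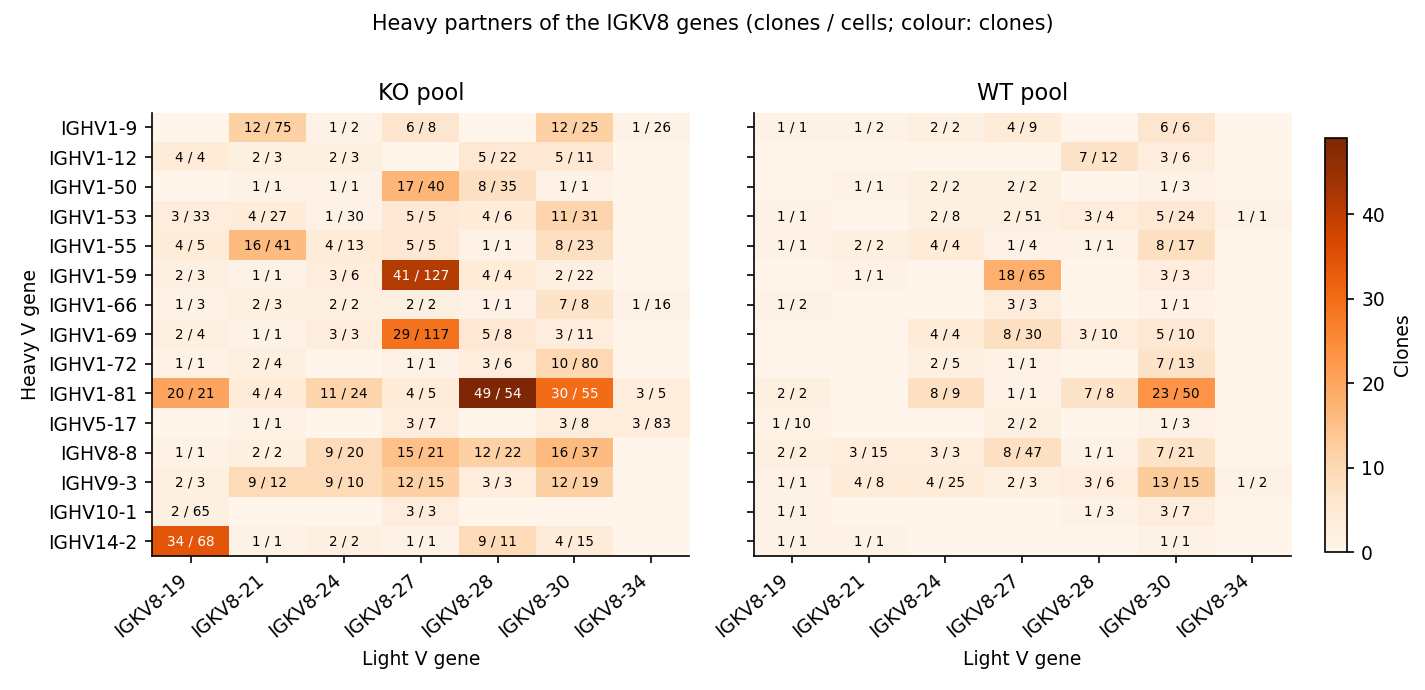
Clones and cells (written as clones / cells, colour by clones) for each heavy V gene (rows, the 3 leading partners of any member) and each IGKV8 gene (columns), KO pool left and WT pool right. IGHV1-81 with IGKV8-28 has 49 clones in KO, IGHV1-59 with IGKV8-27 has 41, and IGHV14-2 with IGKV8-19 has 34, while IGHV5-17 with IGKV8-34 has 83 cells in 3 clones.

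The largest IGKV8 clones were unmutated IgM clones, and they are shown because they weigh on the counts of cells above. Each sequence is the heavy CDR3, from the conserved cysteine codon to the conserved tryptophan codon.
IGHV5-17 with IGKV8-34, KO: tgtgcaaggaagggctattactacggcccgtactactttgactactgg
IGHV1-72 with IGKV8-30, KO: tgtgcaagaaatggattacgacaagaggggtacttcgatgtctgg
IGHV10-1 with IGKV8-19, KO: tgtgtgagactgggtcttgcttactgg
IGHV1-59 with IGKV8-27, WT: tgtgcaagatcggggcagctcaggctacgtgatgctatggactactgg
IGHV1-53 with IGKV8-27, WT: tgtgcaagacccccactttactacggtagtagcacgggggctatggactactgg
The KO clone with IGHV5-17 held 25, 31, 10 and 15 cells in KO replicates 1 to 4, the one with IGHV1-72 held 18, 18, 14 and 18, and the one with IGHV10-1 held 17, 14, 18 and 15. Every cell of these 3 clones was IgM and none had a mutation in IGHV. The WT clones held 11, 8, 11 and 5 cells (IGHV1-59) and 6, 11, 7 and 8 cells (IGHV1-53) in WT replicates 1 to 4, also all unmutated IgM.

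The share of IGKV8 cells in clones of 2 or more cells of their library was 51.7% ± 2.89 in KO and 46.7% ± 2.05 in WT (SD, n = 4 each), a difference of 5.00 points (exact permutation p = 0.0286, adjusted p = 0.0413). In the other kappa cells the order was the opposite, with 46.8% in KO and 55.9% in WT. The difference between the 2 effects was 14 points (exact permutation p = 0.0286, adjusted p = 0.0686 over 12 measures, which misses the threshold). The call within the family was lost without the largest clones (3.70 points, exact p = 0.114). Its exact p was 0.0571 to 0.114 when KO replicate 2 (3.91 points), KO replicate 4 (4.48), WT replicate 1 (5.25), WT replicate 2 (4.13), WT replicate 3 (4.88) or WT replicate 4 (5.76) was left out.

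When clones were defined over both pools, 20 of 1477 IGKV8 clones (1.35%) and 415 of 14978 other kappa clones (2.77%) held cells of both genotypes. Of the 20, 12 used IGKV8-30 and 4 used IGKV8-27, 3 of these with IGHV1-59 and IGHJ1. The widest spread over the pools was in a clone of IGHV8-8 with IGKV8-30 and IGKJ5, with 10 KO and 9 WT cells and 17 different heavy CDR3s in 19 cells. The same heavy CDR3 occurred in both pools in 3 of the 20 clones, among them the KO clone of 64 cells with IGHV10-1 and IGKV8-19, which had 1 WT cell.

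IGKV8 cells carried few mutations, and fewer in KO. Mutation is given as the percent of bases from framework 1 to framework 3 that differ from the germline. In IGKV it averaged 0.0853%, 0.0936%, 0.0970% and 0.0911% in KO replicates 1 to 4 and 0.229%, 0.224%, 0.223% and 0.234% in WT replicates 1 to 4. The libraries of the 2 genotypes did not overlap, and the difference was −0.136 points (exact permutation p = 0.0286, adjusted p = 0.0413). In the paired IGHV it averaged 0.211% ± 0.0299 in KO and 0.433% ± 0.0365 in WT (SD, n = 4 each; exact p = 0.0286, adjusted p = 0.0413). IGKV8 cells with no IGKV mutation made up 85.8% ± 0.904 in KO and 72.1% ± 1.76 in WT (SD, n = 4 each). All 3 differences, those in IGKV mutation, IGHV mutation and unmutated IGKV, kept their direction and their p with each clone counted once, with at least 5 UMIs and without the largest clones.

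The other kappa cells differed between genotypes in the same direction, with IGKV mutation of 0.111% in KO and 0.213% in WT. The genotype difference was larger in IGKV8 cells than in the other kappa cells, by −0.0342 points (exact p = 0.0286, adjusted p = 0.0686, which misses the threshold). With each clone counted once this was −0.00240 points (exact p = 0.686). Without KO replicate 1 it was −0.0306 and without KO replicate 4 −0.0344 points (exact p = 0.0571 for both).

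**Figure D5:**
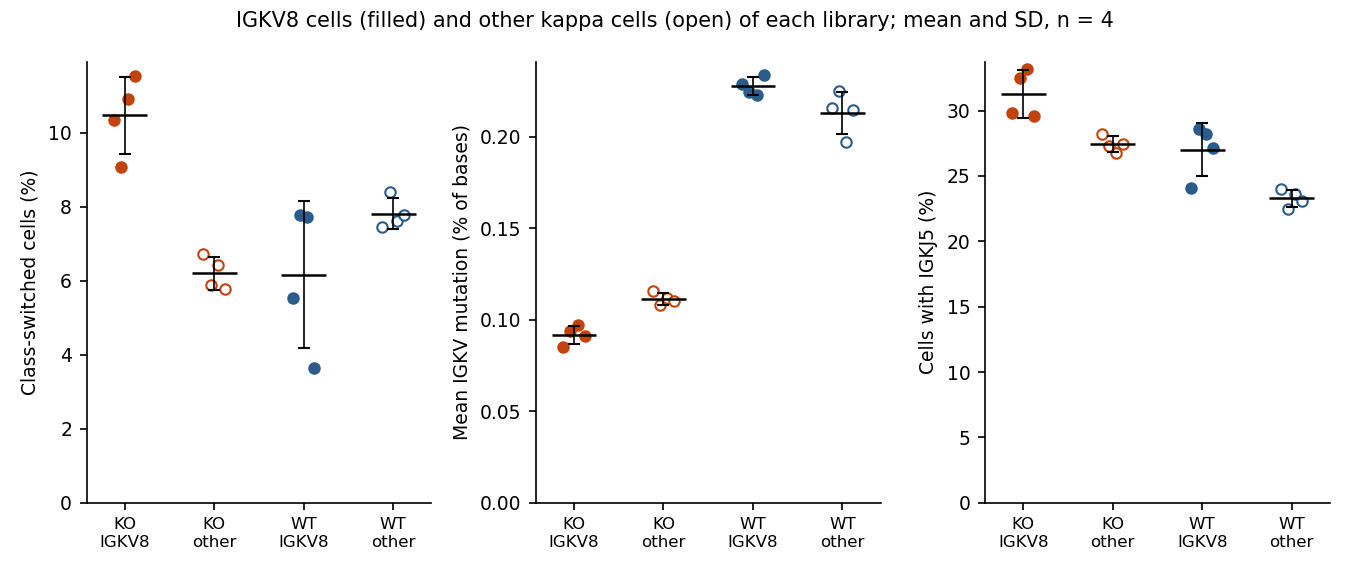
Share of class-switched cells, mean IGKV mutation and share of cells with IGKJ5 (y axes, percent) in IGKV8 cells (filled) and other kappa cells (open) of the 4 KO (orange) and 4 WT (blue) libraries, with means and SDs. Switched IGKV8 cells average 10.5% in KO and 6.17% in WT. IGKV mutation is below 0.1% in every KO library and above 0.2% in every WT library. Over the family as a whole, though not in every member, IGKJ5 is higher in IGKV8 than in other kappa cells of both genotypes.

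Among the 4 members with at least 10 cells in every library, those tested here, IGKV8-30 showed the widest gap. Its IGKV mutation averaged 0.0934% ± 0.0107 in KO and 0.339% ± 0.0423 in WT, and the mutation of its heavy partners 0.187% ± 0.0353 in KO and 0.568% ± 0.0426 in WT (SD, n = 4 each; exact permutation p = 0.0286 and adjusted p = 0.0762 for both, over 8 tests). In IGKV8-27 cells, IGHV mutation averaged 0.197% in KO and 0.362% in WT (exact p = 0.0286, adjusted p = 0.0762). IGKV8-24 cells gave close values in both genotypes, 0.160% in KO and 0.151% in WT for IGKV (exact p = 0.686) and 0.268% in KO and 0.280% in WT for IGHV (exact p = 0.857). IGKV8-21 had the opposite order in the heavy chain, with 0.423% ± 0.087 in KO and 0.329% ± 0.124 in WT, but a WT library held as few as 7 of its cells, and it, IGKV8-19 and IGKV8-34 were not tested. IGKV8-34 was nearly free of mutation in KO, with 97.9% of KO and 61.5% of WT cells unmutated in IGKV.

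Counting each light-chain substitution once per clone, CDR1 held 27% of them in KO and 27.8% in WT, on 51 of 279 bases. IGKV8-30 contributed 169 of these 320 in CDR1, and CDR1 had the most substitutions per base in 3 of the 7 members, IGKV8-24, IGKV8-30 and IGKV8-34. Without IGKV8-30, framework 2 held 3.40 per base and CDR1 held 2.96. The most recurrent were in IGKV8-30, numbered from the first base of framework 1 with the germline base first: A97G in 4 of 258 KO and 17 of 197 WT clones, and G98A in 7 KO and 9 WT clones, both in CDR1. G256A in framework 3 of IGKV8-27 was found in 5 of 205 KO and 7 of 97 WT clones.

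Switched cells were more frequent among IGKV8 cells in KO. The share was 10.4%, 9.08%, 10.9% and 11.5% in KO replicates 1 to 4 and 5.54%, 7.77%, 7.72% and 3.64% in WT replicates 1 to 4, with no overlap. The means were 10.5% ± 1.05 in KO and 6.17% ± 1.98 in WT (SD, n = 4 each), a difference of 4.3 points (exact permutation p = 0.0286, adjusted p = 0.0413). With each clone counted once it was 3.61 points (exact p = 0.0571). In the other kappa cells, switched cells made up 6.20% in KO and 7.81% in WT. The difference between the 2 effects was 5.91 points (exact p = 0.0286, adjusted p = 0.0686).

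IgG1 was the class of most switched KO cells. The IGKV8 cells with a constant gene comprised 2026 IGHM, 199 IGHG1, 26 IGHG2B, 7 IGHG2C, 3 IGHG3 and 1 IGHA cells in KO, and 998 IGHM, 29 IGHG1, 20 IGHG2B, 1 IGHG2C, 17 IGHG3 and 0 IGHA cells in WT. IGHG1 made up 84.4% ± 4.39 of switched IGKV8 cells in KO and 41.0% ± 9.28 in WT (SD, n = 4 each; exact p = 0.0286, adjusted p = 0.0413). The other switched kappa cells had 77.6% in KO and 45.3% in WT. The effects differed by 11.1 points (exact p = 0.143).

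Among KO cells, the switched share was highest in IGKV8-21. Its switched cells numbered 81 of 258 in KO, in 28 of 117 clones, and 0 of 50 in WT, which allows a share of up to 6.00%. The other members had 0 to 10.6% switched cells in KO and 1.64 to 8.62% in WT. Switched KO cells lay in 35 of 258 clones of IGKV8-30 and 28 of 205 clones of IGKV8-27, no fewer clones than in IGKV8-21. IGKV8-19, which rose as much in KO, had 11 switched KO cells of 303 and 1 WT cell of 61. IGKV8-34 had 0 of 141 in KO and 1 of 26 in WT. IGKV8-28 had 23 switched KO cells, 15 of them in 1 IGHG1 clone with IGHV1-12, and 5 switched WT cells.

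A heavy CDR3 of 13 residues with a common ending recurred in switched KO cells of 3 members. Switched cells with it lay in 11 of the 28 switched KO clones of IGKV8-21, 3 of the 28 of IGKV8-27 and 1 of the 7 of IGKV8-24. The ending was CCNTATGNTATGGACTACTGG, read on the coding strand up to the end of the heavy CDR3, and it was defined after the switched clones had been seen, so its counts are a description. Capitals mark it in these examples, which show different CDR3 starts joined to the same end with IGHJ4.
IGHV1-53 or IGHV1-50 with IGKV8-21: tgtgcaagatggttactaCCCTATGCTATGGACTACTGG
IGHV1-9 with IGKV8-21: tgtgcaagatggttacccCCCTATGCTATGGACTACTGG
IGHV1-55 with IGKV8-21: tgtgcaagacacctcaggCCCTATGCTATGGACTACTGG
IGHV1-55 with IGKV8-21 or IGKV8-24: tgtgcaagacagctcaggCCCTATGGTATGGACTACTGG
IGHV1-42 with IGKV8-27: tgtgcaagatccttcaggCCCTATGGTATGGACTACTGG
The ending was found in 87 of 2272 KO IGKV8 cells, 17, 16, 27 and 27 in KO replicates 1 to 4, and in 0 of 1077 WT IGKV8 cells. The ending was taken from switched KO clones of IGKV8-21, IGKV8-24 and IGKV8-27 with IGHJ4 alone. That choice favoured a KO excess, a high switched share, these 3 members and an excess over the other kappa cells. As a description, the KO share of 3.83% was at least 13.7-fold higher than the 0.279% that 3 WT cells would give. By clones, 2.75% in KO was at least 4.74-fold higher than the 0.580% that 3 WT clones would give. The 87 cells fell in 27 clones with 14 IGHV genes. IGHJ4 was the joining gene of all 87, as it was of the clones that defined the ending. The part of the ending after CCN also closes heavy CDR3s of other IGHJ4 clones, such as the KO clone of 25 cells with IGHV1-53 and IGKV8-19. Beyond IGHJ4, the ending is thus set apart by CCN and the length of 13 residues. IGKV8-21 held 63 of the cells in 17 clones, IGKV8-24 held 15 in 6 clones and IGKV8-27 held 9 in 4 clones.

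Of the 87 cells, 60 were switched, 52 of them to IGHG1. They made up 25.4% of the 236 switched IGKV8 cells in KO. In the other kappa cells the ending was found in 24 of 18952 KO cells in 17 clones and in 6 of 16505 WT cells in 5 clones, with 0 switched cells in both. No clone of these cells had a part in defining the ending, so lower counts there were favoured and are a description. Without the cells that carried it, 8.09% of KO and 6.24% of WT IGKV8 cells were switched, pooled over the libraries of a genotype. The ending was defined from switched KO clones, so leaving it out removes switched KO cells by design.

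A second heavy CDR3 of the same length recurred with IGKV8-21. The sequence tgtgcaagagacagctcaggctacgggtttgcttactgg, with IGHJ3 and IGKJ1, was the most common one of a KO clone of 14 cells with IGHV1-9, 13 of them switched. It was also the most common one of a KO clone of 10 cells with IGHV1-53, 3 of them switched. Clones of IGHV1-9, IGHJ3 and IGKV8-21 defined over both pools placed 2 WT cells with the first of these.

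Averaged over the family, heavy CDR3s paired with IGKV8 chains were longer than those of other kappa cells, but not in every member. Their mean length was 14.7 residues ± 0.174 in KO and 15 ± 0.118 in WT (SD, n = 4 each), against 14.4 in KO and 14.3 in WT for the other kappa cells. IGKV8 cells exceeded the others by 0.441 residues, in 8 of 8 libraries (exact sign-flip p = 0.00781, adjusted p = 0.0312). The difference between KO and WT IGKV8 cells, −0.344 residues, had an exact permutation p of 0.0571. KO replicate 2, at 14.9 residues, lay above the other 3 KO libraries at 14.6 residues. Without it the difference was −0.431 residues (exact p = 0.0286).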

How the data were processed

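Contig tables of 8 libraries (4 KO, 4 WT) were used. Per the file headers, the authors deposited for each contig a read count and a UMI count, gene names, region sequences and a clonotype, with no normalization of these counts. Per the submitters' processing notes, Cell Ranger (version not given in the sources used here), R 4.3.1 and the build mm10 were used. All 94 IGKV gene names matched RefSeq symbols of GRCm38.p6.

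Cells had exactly 1 heavy and 1 light contig. No doublet caller was applied; barcodes with more than 1 heavy contig, which may be doublets, were not used. A share of 3 cells is 0.493 to 1.21% of the IGKV8 cells of a library, and such floors and intervals cover counting error only. Cells with the same V and J genes in both chains and an equally long heavy CDR3 were linked into a clone where their heavy CDR3s were identical at 0.85 or more of the bases (single linkage). Germlines needed at least 20 clones.

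Cells per gene and per gene pair were tested with edgeR 4.0.16 (quasi-likelihood, filterByExpr, R 4.3.3, Benjamini-Hochberg), with DESeq2 1.42.0, TMM factors and other settings as alternatives, and the tests were checked on simulated counts. Single values were tested with exact two-sided permutation tests. Tables were handled with pandas 2.3.3 and NumPy 2.4.6, tests run with SciPy 1.17.1 and plots drawn with matplotlib 3.10.9, under Python 3.11.15. The named items were the 7 members, the 3 leading heavy partners and 2 largest clones of each, the called pairs, the joining and constant genes, the 5 neighbours tested and the 3 genes of most like share. The members and lists were chosen with earlier results of these data known. Replicate numbers did not pair the libraries, since the correlations of deviations were −0.119 to 0.0293.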

Additional observations from a re-analysis of the deposited data

Results flagged for a closer look

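Over 40 groups of 4 libraries, 1 library stood apart from the other 3 by Dixon's criterion, where chance gives about 1 in 20. This was the mean heavy CDR3 length of IGKV8 cells in KO replicate 2, at 14.9 residues, against 14.6 in each of the other KO libraries.

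The effect of genotype in IGKV8 cells and in the other kappa cells of the same libraries differed at the smallest p the exact permutation test allows (0.0286, adjusted p = 0.0686) for 5 measures. These were the mean IGKV mutation (−0.0342 points of a percent), the share with no IGKV mutation (3.67 points), the switched share (5.91 points), the mean heavy CDR3 length (−0.442 residues) and the share of cells in clones of 2 or more (14 points). None passed the adjusted threshold over 12 measures.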

How the results depend on the processing

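Of 469 recomputed single values, 404 kept their direction and side of the threshold, 53 lost and 6 gained a call, and 6 turned direction; of 311 for genes and pairs, 295 kept both, 9 lost a call and 7 turned. The family share kept its call in all alternatives except the replicate block. With sign flips within replicate numbers (replicate block), whose smallest p is 0.125, the calls of the family share (4.58), IGKV mutation (−0.136), no IGKV mutation (13.7), IGHV mutation (−0.222), switched share (4.3), IGHG1 share (43.4), IGKJ2 (−7.10), IGKJ5 (4.28) and expanded clones (5.00) were lost, all in points. edgeR with the block called 6 IGKV8 genes. Same-numbered libraries were not paired (correlations of −0.119 to 0.0293).

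With each clone counted once, KO minus WT was 3.61 for the switched share, 0.203 for IGKJ2, −3.75 for IGKJ4, 2.56 for IGKJ5 and 3.66 for expanded clones (points), and −0.0866 residues for light CDR3 length. IGKV8 minus other kappa was −0.0218 for IGKV mutation, −2.07 for IGKJ2 and 2.04 for IGKJ4. The difference of the effects was −0.00240 for IGKV mutation, 0.729 for no IGKV mutation, −5.38 for IGKJ4, −0.0772 for light and −0.194 for heavy CDR3 length. Without the largest clones (chosen after seeing the data, as were all alternatives for the comparison with other kappa cells) KO minus WT was −3.88 for IGKJ2, −5.14 for IGKJ4 and 3.70 for expanded clones, IGKV8 minus other kappa was −1.66 for IGKJ2 and 1.78 for IGKJ4, and the difference of the effects was −0.0260 for IGKV mutation, 2.48 for no IGKV mutation, −7.27 for IGKJ4 and −0.280 for heavy CDR3 length. All cells with 1 heavy and any light contig gave 4.41 for IGKJ4 and 2.02 for IGKJ5. No IGKV mutation had a difference of effects of 3.03 with at least 5 UMIs and 2.58 with germlines from at least 50 clones. Clone identity of at least 0.95 gave 4.49 for expanded clones. The causes were not tested.

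Leaving out 1 library in turn gave KO minus WT of −8.01 to −6.16 for IGKJ2, 3.31 to 4.85 for IGKJ5, −0.431 to −0.297 for heavy CDR3 length and 3.91 to 5.84 for expanded clones, and IGKV8 minus other kappa of 2.36 to 3.13 for IGKJ4. The difference of effects ranged from −0.0392 to −0.0304 for IGKV mutation, 3.03 to 4.50 for no IGKV mutation, 7.96 to 15.8 for IGHG1, 0.916 to 3.29 for IGKJ1 and −0.522 to −0.397 for heavy CDR3 length.

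Of the IGKV8 genes, 3 were called with DESeq2 and 4 with DESeq2 and a mean dispersion (chosen after seeing the data), with TMM factors or with each clone counted once. Over all genes DESeq2 called 30 (36 with a mean dispersion) and counting clones once called 31. IGKV8-24 turned to −0.0882 with TMM factors and −0.0731 with DESeq2 (−0.0717 with a mean dispersion). Of the 8 IGKV8 pairs that passed the filter, 7 were called, among 55 of all 73 pairs (75.3%). Most of the 8 passed through 1 genotype alone, which favoured a call, so this count is no result about the members. With no filter on low counts 48 of 332 IGKV8 pairs (14.5%) were called, against 351 of all 3687 (9.52%). With each clone counted once 2 IGKV8 pairs were called, of 16 calls over all pairs, and without the largest clones 4 were. These last counts come after the same kind of filter and bear the same limit. IGHV1-81 with IGKV8-30 turned to 0.37 with TMM factors, 0.23 with DESeq2 in both settings and 0.141 without WT replicate 2, within a range of −0.290 to 0.141 with 1 library left out. Cell numbers, down to 5 WT cells of IGKV8-34 in a library, limit the precision.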

Other observations

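IGKV8 contigs were also counted in the barcodes left out of the paired cells. Of kappa contigs in barcodes with 1 heavy and 2 or more light contigs, IGKV8 genes made up 10.2% ± 1.96 in KO and 4.20% ± 0.765 in WT (SD, n = 4 each). In barcodes with no heavy contig the shares were 9.30% ± 1.12 in KO and 6.49% ± 0.794 in WT, and in barcodes with 2 or more heavy contigs 9.88% ± 1.22 in KO and 9.03% ± 1.31 in WT.

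Very high heavy-chain UMIs, above the 99th percentile of the library, were seen in 22 KO and 6 WT IGKV8 cells.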
